A study of Mus musculus with 10 samples.

Results

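The GATA family of transcription factors was followed in wild-type mouse embryos and in embryos mutant for Axin1 and Axin2. Members were taken by exact gene symbol, Gata1 to Gata6, and all 6 were found among the 20006 genes listed. Each of the 6 passed the filter for testing, an average of no less than 10 scaled counts across the embryos, as did 15429 genes in all. Scaled counts are read counts divided by 1 size factor per embryo. RNA-seq was done on 10 embryos at embryonic day 7.5, 5 of them wild type (WT) and 5 labelled as mutant for both Axin1 and Axin2. The labelled tissue is the whole embryo, measured in bulk, so fewer cells of a type and less RNA per cell cannot be told apart. The mutant descriptions carry the tag DKO. The alleles, the strain, the litters and whether any gene is lost in every cell are not stated in the labels. Nothing in the labels ties an embryo to a litter or batch. The p-values set the group difference against the spread between these embryos, and may not cover a spread between litters.

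GATA factors are zinc finger proteins that bind DNA sites built around the letters GATA and often open closed chromatin early in a lineage. Gata1, Gata2 and Gata3 are best known from blood, and Gata2 and Gata3 also from trophoblast, the outer tissue that builds the placenta. Gata4, Gata5 and Gata6 act in endoderm and heart, with Gata4 and Gata6 also required in the visceral and parietal endoderm that surround the embryo proper. Axin1 and Axin2 are scaffolds of the complex that degrades β-catenin, the effector of canonical WNT signalling.

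Start regions of 4 members were read to show the base content before their RefSeq starts. RefSeq windows on GRCm38.p6 were cut to the 250 bases before the annotated start, and CG dinucleotides are in capitals. Gata1 lies at chrX:7967911-7968160 (minus strand), Gata2 at chr6:88193641-88193890 (plus strand, the upstream of 2 annotated starts), Gata3 at chr2:9878601-9878850 (minus strand) and Gata5 at chr2:180334680-180334929 (minus strand).
Gata1: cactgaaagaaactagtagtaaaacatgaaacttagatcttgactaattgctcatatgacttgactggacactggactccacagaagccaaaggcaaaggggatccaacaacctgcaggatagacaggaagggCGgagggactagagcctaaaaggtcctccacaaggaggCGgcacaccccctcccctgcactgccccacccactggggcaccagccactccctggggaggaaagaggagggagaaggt
Gata2: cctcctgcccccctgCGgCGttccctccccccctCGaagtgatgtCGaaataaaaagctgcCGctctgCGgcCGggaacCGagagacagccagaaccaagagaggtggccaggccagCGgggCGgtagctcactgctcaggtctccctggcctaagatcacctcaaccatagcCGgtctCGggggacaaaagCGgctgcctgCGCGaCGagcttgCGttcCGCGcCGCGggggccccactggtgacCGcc
Gata3: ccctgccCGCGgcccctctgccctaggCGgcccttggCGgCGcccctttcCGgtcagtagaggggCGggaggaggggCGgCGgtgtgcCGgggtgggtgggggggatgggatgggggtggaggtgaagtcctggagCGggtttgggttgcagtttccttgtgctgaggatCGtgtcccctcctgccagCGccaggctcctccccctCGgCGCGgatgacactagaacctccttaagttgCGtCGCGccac
Gata5: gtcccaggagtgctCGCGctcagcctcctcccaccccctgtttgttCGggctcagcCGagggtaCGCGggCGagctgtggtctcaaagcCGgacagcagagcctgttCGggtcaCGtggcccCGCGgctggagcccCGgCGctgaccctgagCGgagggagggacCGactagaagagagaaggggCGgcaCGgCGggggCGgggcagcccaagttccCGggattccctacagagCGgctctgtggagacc

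The window of Gata1 held 2 CG dinucleotides and was 54% G or C. The windows of Gata2, Gata3 and Gata5 held 22, 19 and 22, with 67.2%, 70% and 70% G or C. The other Gata2 start (chr6:88198414-88198663) had 24 CG dinucleotides and 74% G or C. The median over 32851 mouse promoters was 6 CG dinucleotides and 52.4% G or C, so the Gata1 window lay below it in CG and those of the other 3 genes above. A GATA motif, searched on both strands as the letters AGATAA, the letters AGATAG, the letters TGATAA or the letters TGATAG, was found in none of the 5 windows of these 4 genes, while 26.5% of all windows held one. A TCF/LEF motif, searched as CTTTGAA or CTTTGAT on both strands, was also found in none of the 5, against 7.48% of all windows. With only 5 windows, these counts cannot show that either motif is rarer here than over all windows. The Gata3 window lies within an exon of the antisense gene Gm13256 in the GENCODE M21 annotation, and the last bases of the Gata5 window lie in a GENCODE exon of Gata5. The downstream Gata2 window lies within a Gata2 exon and is not printed. The windows of Gata1 and Gata3 lie inside their GENCODE genes, which reach upstream to 7978071 and 9890034. Starts further upstream in these 2 genes were not read.

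The libraries held 20744547 to 28505209 reads over the listed genes. Axin1 and Axin2 were followed as the check of the genotype. Axin1 fell by 1.49 on the log2 scale (SE 0.21, limma adjusted p = 0.000614). The library labelled mutant 4 kept 65.8% of the WT mean of Axin1, against a mean of 30.8% over mutants 1, 2, 3 and 5, above every other mutant, so it went partly against its label. Axin1 measured 2336 scaled counts there, still below every WT embryo (3314 to 3843). Where the alleles change the transcripts is not stated, so reads from outside the changed part could count in both genes. Axin2 did not pass the threshold (−0.01, limma adjusted p = 0.981). Its mean over mutants 1, 2, 3 and 5 was 107% of the WT mean, so its level did not show the label. In the library labelled mutant 4 Axin2 measured 348.7 scaled counts, 79.1% of the WT mean and below every other embryo. Since that library stood apart, the calls of the members and the counts of the gene lists are given with and without it.

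Of the 6 GATA genes, Gata6 rose and Gata5 fell in the mutants, and Gata1, Gata2, Gata3 and Gata4 did not pass the threshold. Passing means a limma adjusted p under 0.05, with Benjamini-Hochberg adjustment over all genes tested. In all, 25.1% of the genes tested passed, 11.4% higher and 13.8% lower in mutants, so 2 of 6 is near the background. Without the library labelled mutant 4, Gata4, Gata5 and Gata6 passed, 3 of 6 members, against 29.4% of all genes. The WT and mutant values did not overlap for Gata6 alone among the 6, against 17.1% of all genes. The family thus had no common direction: its members moved up, down or within the spread of the embryos.

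**Figure D1:**
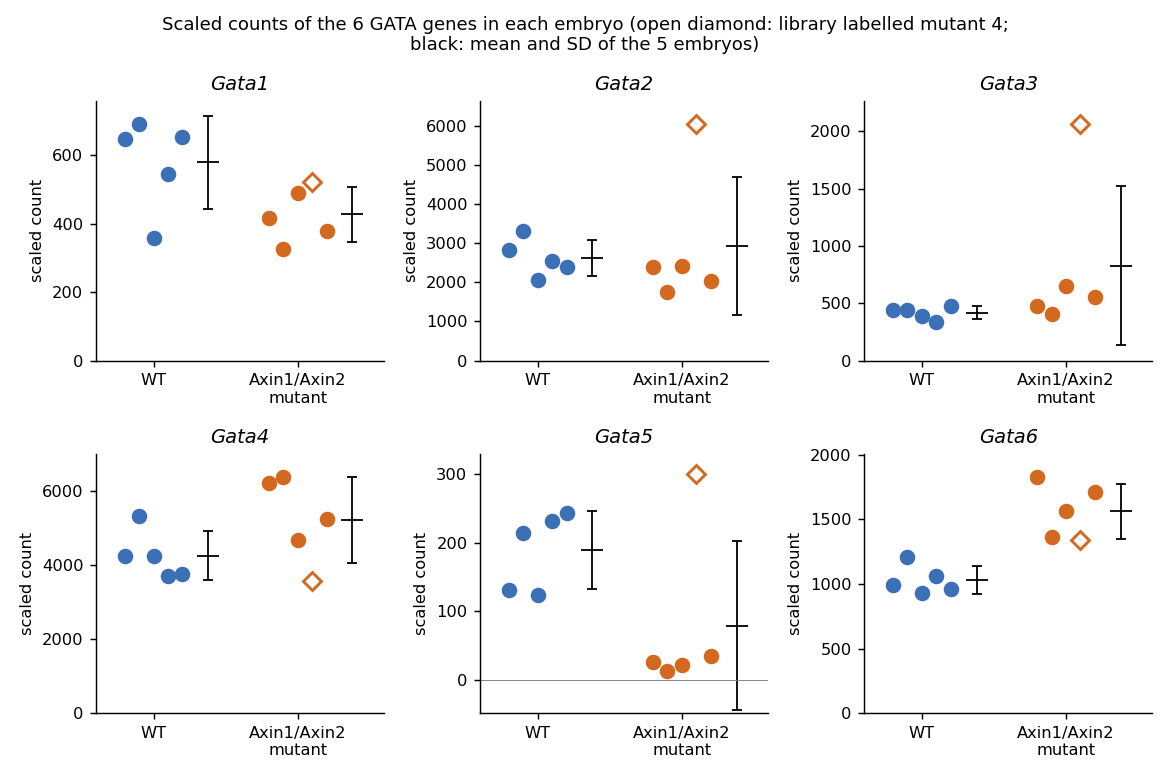
Scaled counts (y axis) of each GATA gene in the 5 WT and 5 Axin1/Axin2 mutant embryos (x axis), 1 point per embryo, with the group mean and SD in black; the open diamond is the library labelled mutant 4. Gata6 is higher in every mutant than in any WT embryo, Gata5 is near 0 in 4 mutants and 300.2 in the library labelled mutant 4, and Gata2 and Gata3 are highest in that library.

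Gata6, which with Gata4 drives primitive endoderm and later heart and gut formation, rose modestly and evenly. It measured 990.5, 1206, 930 (WT 3), 1059 and 962.2 scaled counts in WT 1 to 5. In mutants 1 to 5 it measured 1825, 1360, 1564, 1341 and 1714. Every mutant lay above every WT embryo. The mean went from 1029 ± 109.4 to 1561 ± 213.2 (SD, n = 5), a log2 fold change of 0.60 (SE 0.11, 95% confidence interval 0.35 to 0.85, limma adjusted p = 0.00332). The exact two-sided permutation test over the 252 assignments of embryos gave p = 0.00794, the smallest it can give. Without the library labelled mutant 4 the log2 fold change was 0.65 (limma adjusted p = 0.00163). Gata6 (ENSMUSG00000005836.8) lies on chromosome 18, 11052064 to 11085635 on the plus strand (GENCODE M21, GRCm38). The opposite-strand transcript 1010001N08Rik shares 93 bases of its exons and had at most 34.4 scaled counts, far below Gata6 itself.

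Gata4, a factor of visceral endoderm and heart, had the highest level of the family and did not pass over all embryos. WT 1 to 5 measured 4245, 5328, 4232, 3701 and 3753 scaled counts. Mutants 1 to 5 measured 6222, 6361, 4662, 3568 and 5235. The groups overlapped: 2 mutants lay above all WT embryos, and the library labelled mutant 4 lay below all of them. The log2 fold change was 0.27 (SE 0.16, 95% confidence interval −0.07 to 0.62, limma adjusted p = 0.22). Without that library Gata4 passed, with 0.40 (interval 0.12 to 0.68, limma adjusted p = 0.0334). Gata4 (ENSMUSG00000021944.15) lies on chromosome 14, 63198922 to 63271692, minus strand.

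Visceral endoderm genes were described beside Gata4 and Gata6. Of 15 tested, 5 rose and 0 fell, beside 11.4% higher and 13.8% lower over all genes, and the median log2 fold change was 0.37 against 0.01 over all genes. The 5 were Sox7 (0.71, SE 0.14), an endoderm SOX factor, Dab2 (0.73, SE 0.20) and Cubn (0.60, SE 0.17), which serve endocytosis, the nuclear receptor Hnf4a (0.56, SE 0.17) and the endocytic receptor Lrp2 (0.37, SE 0.12). Without the library labelled mutant 4, 9 rose and 0 fell, beside 29.4% of all genes in either direction. Over the 10 fits without 1 embryo the number that rose was 1 to 9, lowest without WT 5, where Sox7 alone rose. Sox7 kept its call in all 10 fits. Lrp2 (limma adjusted p = 0.0383 over all embryos) was thus not called without WT 5, and its other fits are not given here. Hnf4a lost its call in 7 of them (limma adjusted p = 0.0519 to 0.0759; without WT 1, 4 or 5 or mutant 1, 2, 3 or 5), Cubn in 6 (0.0571 to 0.0632; without WT 1 or 5 or mutant 1, 2, 3 or 5) and Dab2 in the fit without WT 5 (0.051). The summed level of the list was 203385 to 290012 scaled counts in WT, 295047 to 334134 in mutants 1, 2, 3 and 5, and 166922 in the library labelled mutant 4. Gata4 was above the WT range in mutants 1 and 2, inside it in mutants 3 and 5 and below it in that library. Gata6 was above every WT embryo in all 5 mutants, also in that library (1341), where the list sum was below every WT embryo. That sum is dominated by the highest genes, with Apoe alone at 52286 there. Of the 5 genes that rose, Sox7 (866.1) was above every WT embryo in that library too. Dab2, Cubn, Hnf4a and Lrp2 were inside their WT ranges there. The part of this tissue in the Gata4 and Gata6 values was not tested.

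Parietal and definitive endoderm genes were counted as well. Of 10 parietal endoderm genes 0 rose and 1 fell, the plasminogen activator Plat (−1.38, SE 0.43), and 0 rose and 2 fell without the library labelled mutant 4. Plat lost its call in 7 of the 10 fits without 1 embryo (limma adjusted p = 0.0587 to 0.0867). Those were the fits without WT 1, 4 or 5 or mutant 1, 2, 3 or 5. Over all 19 alternatives Plat passed in 10. Of 9 definitive endoderm genes tested 0 rose and 4 fell, beside 11.4% higher and 13.8% lower over all genes. Without the library labelled mutant 4, 2 rose and 4 fell, the 2 being Hhex (0.48, limma adjusted p = 0.0234) and Cxcr4 (1.44, limma adjusted p = 0.00182). Over all embryos the genes that fell were Cer1, a secreted inhibitor of NODAL (−6.04, SE 0.80), the thyrotropin-releasing hormone gene Trh (−3.45, SE 0.47), the forkhead gene Foxa1 (−1.70, SE 0.32) and the adhesion gene Epcam (−0.57, SE 0.09). The summed level of the parietal list was 34339 to 63511 in WT, 33951 to 40810 in mutants 1, 2, 3 and 5, and 56620 in the library labelled mutant 4. That of the definitive endoderm list was 22955 to 34760 in WT, 21081 to 25645 in mutants 1, 2, 3 and 5, and 16019 in that library.

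Gata5, a factor of endoderm and of the endocardium of the heart, fell in 4 of 5 mutants to a small share of its WT level. WT 1 to 5 measured 131.2, 214.4, 123.8, 232.4 and 243.1 scaled counts. Mutants 1, 2, 3 and 5 measured 26.4, 13.4, 21.3 and 34.2, and the library labelled mutant 4 measured 300.2, above every WT embryo. The log2 fold change was −2.22 (SE 0.66, 95% confidence interval −3.65 to −0.78, limma adjusted p = 0.0284). The exact two-sided permutation test gave p = 0.0476. Without the library labelled mutant 4 it was −2.95 (interval −3.65 to −2.25, limma adjusted p = 5.94e-05), from 189 ± 57.11 (SD, n = 5) to 23.8 ± 8.74 (SD, n = 4). With all embryos the call was lost with edgeR (−1.27, adjusted p = 0.241) and DESeq2 (−1.25, adjusted p = 0.263) on recovered reads. It was also lost in 7 of the 10 fits without 1 embryo: without WT 2, 4 or 5 or mutant 1, 2, 3 or 5 (adjusted p = 0.0535 to 0.0711). The reads behind these values were 109 to 259 in WT, 14 to 36 in 4 mutants and 297 in the other. Gata5 (ENSMUSG00000015627.5) lies on chromosome 2, 180325133 to 180334699, minus strand, and 258 of its exon bases are shared with the antisense gene Gata5os, whose reads cannot be told apart there without strand and which is listed with at most 5.63 scaled counts.

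Cardiac genes were followed beside Gata5. Of 14 tested, 1 rose and 3 fell (4 of 14, near the 25.1% of all genes), with a median log2 fold change of −0.66. The genes that fell were Mesp1, a factor of the earliest cardiac mesoderm (−4.27, SE 0.45), the atrial myosin light chain Myl7 (−3.02, SE 0.50) and the chromatin remodeller subunit Smarcd3 (−1.80, SE 0.42). The cardiac actin Actc1 rose (1.59, SE 0.35). Without the library labelled mutant 4, 9 fell and 1 rose, beside 29.4% of all genes in either direction, and the median was −1.19. Myl7 measured 148.8 to 430.7 scaled counts in WT, 15.1 to 29.7 in mutants 1, 2, 3 and 5, and 106.1 in the library labelled mutant 4. Nkx2-5, a homeobox partner of GATA factors in the heart, measured 17 to 65.7 in WT, 2.87 to 8.55 in mutants 1, 2, 3 and 5 and 123.3 in that library, without passing over all embryos (−1.84, adjusted p = 0.12).

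**Figure D2:**
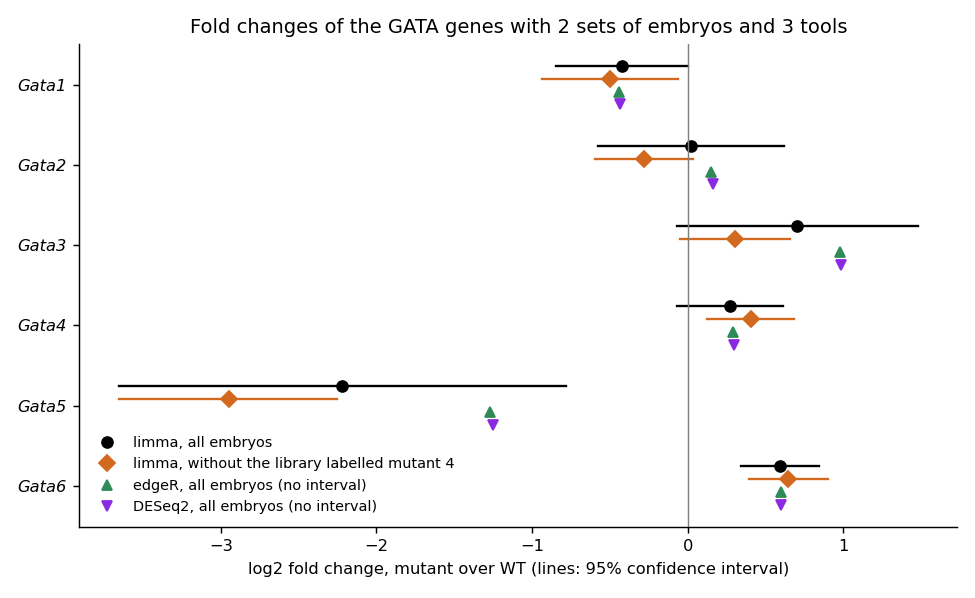
Log2 fold change of mutant over WT (x axis) for each GATA gene (y axis), with 95% confidence intervals for limma over all embryos and without the library labelled mutant 4, and point values from edgeR and DESeq2. Gata6 lies at 0.60 to 0.65 in each, Gata5 runs from −2.95 to −1.25, and Gata2 lies on either side of 0.

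Gata2 and Gata3, the pair of GATA genes best known from trophoblast, were both set apart by a single library. Gata2, also a factor of blood progenitors, measured 2825, 3298, 2052, 2549 and 2395 scaled counts in WT 1 to 5. Mutants 1, 2, 3 and 5 had 1757 to 2407, within or just below the WT range, and the library labelled mutant 4 had 6033. The log2 fold change was 0.02 (SE 0.28, 95% confidence interval −0.58 to 0.62, limma adjusted p = 0.968). Without that library it was −0.28 (interval −0.59 to 0.03, limma adjusted p = 0.165).

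Gata3, which specifies trophoblast and later acts in ectoderm and T cells, measured 439.7, 443.8, 389.5, 337.4 and 478.8 scaled counts in WT 1 to 5. Mutants 1 to 5 measured 471.8, 405 (mutant 2), 649.7, 2060 and 551.7. The groups overlapped, with 3 mutants above all WT embryos and the library labelled mutant 4 at 4.30 times the highest WT value. The log2 fold change was 0.70 (SE 0.36, 95% confidence interval −0.07 to 1.48, limma adjusted p = 0.168), and 0.30 without that library (interval −0.05 to 0.66, limma adjusted p = 0.185). DESeq2 on recovered reads called Gata3 over all embryos (0.99, adjusted p = 0.0348), and edgeR did not (0.98, adjusted p = 0.0945). Gata2 (ENSMUSG00000015053.14) lies on chromosome 6, 88193891 to 88207032, plus strand. Gata3 (ENSMUSG00000015619.10) lies on chromosome 2, 9857078 to 9890034, minus strand, and shares 155 exon bases with Gm13256 on the opposite strand and 77 with 9230102O04Rik on its own.

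Trophoblast markers moved with Gata2 and Gata3 in the library labelled mutant 4. In it, 8 of 18 genes of the extra-embryonic ectoderm and trophoblast list were at least 2-fold above every other embryo, against 2.14% of all genes tested. Of the 14 blood genes tested, 5 met the rule there too, among them Hba-x, Hbb-bh1, Klf1 and Nfe2. So did 3 of the 11 endothelial genes tested, Cdh5, Pecam1 and Sox18. Gata3 met the same rule, and Gata2 was 1.83 times the highest WT value. Plet1, a surface protein of trophoblast progenitors, measured 14840.5 scaled counts against at most 1685 in any other embryo. The placental gene Plac1 measured 12764 against at most 2890.5, the keratin Krt7 6878 against at most 1299, and the AP-2 factor Tfap2c 9354 against at most 3654.5. Tpbpa, a marker of spongiotrophoblast, measured 390.1 against at most 1.14. Eomes (491.2), Elf5 (145.5), Esrrb (81.9) and Cdx2 (1434) of the same list lay below all other embryos there. Other transcription factors of the list did not, with Ets2 (4758) above every other embryo, like Tfap2c, and Tead4 (572) inside its WT range. The summed level of the list was 58113 to 76616 in WT, 66298 to 70804 in mutants 1, 2, 3 and 5, and 145174 in the library labelled mutant 4. Over all embryos 0 of the 18 passed in either direction with limma, and 1 rose and 2 fell without that library. These genes were chosen for their values in that library, and their part in the Gata2 and Gata3 values was not tested.

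**Figure D3:**
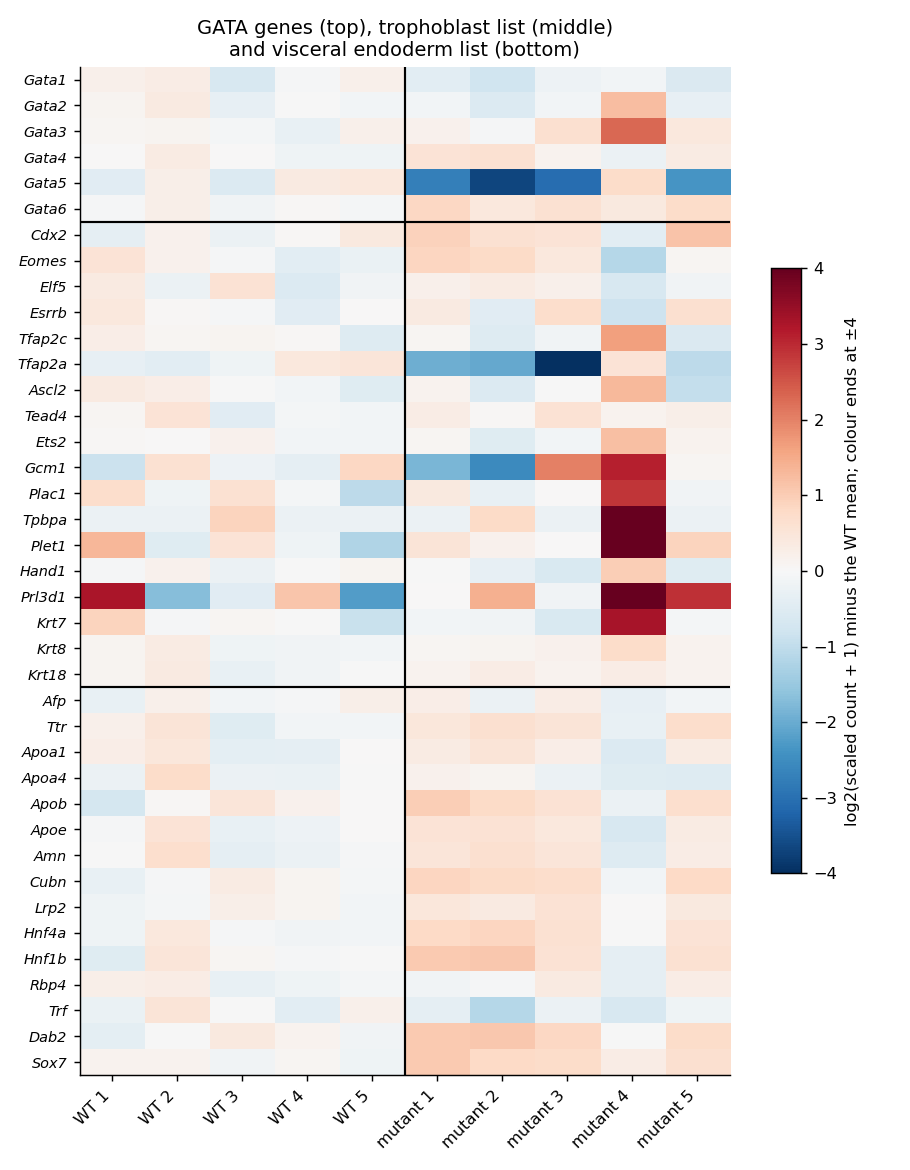
Log2(scaled count + 1) minus the WT mean (colour) for the 6 GATA genes, the 18 trophoblast genes and the 15 visceral endoderm genes (y axis) in each embryo (x axis). The library labelled mutant 4 is high for Gata2, Gata3 and 8 trophoblast genes such as Plet1, and its visceral endoderm sum, 166922, is below all other embryos.

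Gata2 is also expressed in the maternal decidua. Of 9 decidua genes 4 rose and 0 fell, with and without the library labelled mutant 4, beside 11.4% higher over all genes. Those that rose were the prolactin genes Prl8a2 (4.03, SE 0.89) and Prl3c1 (3.75, SE 0.94) and the homeobox genes Hoxa10 (3.50, SE 0.35) and Hoxa11 (4.24, SE 0.28), the last 2 of which the posterior embryo also expresses. Hoxa10 measured 56 to 151 scaled counts in WT and 594.3 to 2304 in mutants, and Hoxa11 25.9 to 43.2 and 369.9 to 1184. The summed level of the list includes both, so it does not stand for decidua alone. It was 1126 to 1687 in WT and 3301 to 17308 in mutants, with the highest sum in mutant 3. Gata2 measured 2407 in that embryo, inside the WT range. In the library labelled mutant 4 the sum was 6979, also above every WT embryo, and Gata2 measured 6033. The part of this tissue in the Gata2 values was not tested. Of 5 maternal blood cell genes tested, S100a8 rose (2.55, SE 0.82) and 0 fell, with and without the library labelled mutant 4. S100a8 was at 137.8 scaled counts in mutant 3 and lost its call in 6 of the 10 fits without 1 embryo (limma adjusted p = 0.0522 to 0.0974). Those were the fits without WT 1, 2 or 5 or mutant 2, 3 or 5. Over the 17 alternatives that gave it a value, S100a8 passed in 9. With mutants 3 and 4 both left out, a comparison added after the values were seen, Gata6 (0.66, limma adjusted p = 0.0047), Gata5 (−2.92, limma adjusted p = 0.000223) and Gata4 (0.49, limma adjusted p = 0.02) passed.

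Surface ectoderm, where Gata3 also acts, was described beside it. Of 9 surface ectoderm genes tested 0 rose and 2 fell, the homeobox gene Dlx5 (−2.44, SE 0.60) and the epithelial factor Grhl2 (−0.74, SE 0.22), beside 13.8% lower over all genes. With the library labelled mutant 4 left out, 0 rose and 3 fell. Grhl2 lost its call in 6 of the 10 fits without 1 embryo (limma adjusted p = 0.0544 to 0.0661). Those were the fits without WT 1 or 2 or mutant 1, 2, 3 or 5. Over all 19 alternatives Grhl2 passed in 12. The list shares 4 genes with the trophoblast list, Krt8, Krt18, Tfap2a and Tfap2c, and the summed level of the 6 others was 2035 to 3182 in WT and 1797 to 3028 in mutants, with the highest mutant sum in the library labelled mutant 4.

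Gata1, the master regulator of red cell and megakaryocyte formation, did not pass, with a lower mean in mutants. WT 1 to 5 measured 647.8, 690.4, 357.7, 545.6 and 654.3 scaled counts. Mutants 1 to 5 measured 417.1, 327.4, 490.6, 522.5 and 379.9. WT 3 fell among the mutants, and the library labelled mutant 4 did not stand apart. The log2 fold change was −0.42 (SE 0.19, 95% confidence interval −0.84 to 0.00, limma adjusted p = 0.134), and the exact two-sided permutation p was 0.0952. Without WT 3 Gata1 passed (−0.58, limma adjusted p = 0.0196). Over the other alternatives the adjusted p was 0.067 to 0.273. Gata1 (ENSMUSG00000031162.14) lies on chromosome X, 7959260 to 7978071, minus strand.

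Blood genes, many of them targets of Gata1 and Gata2, went both ways. Of 14 tested, 2 rose and 2 fell (4 of 14, near the 25.1% of all genes), with a median log2 fold change of −0.26. Leaving out the library labelled mutant 4, the counts were 2 and 4, with a median of −0.52. The embryonic globin Hbb-y rose (5.37, SE 0.64), as did the megakaryocyte integrin Itga2b (1.56, SE 0.30). The erythropoietin receptor Epor (−1.71, SE 0.50) and the progenitor factor Myb (−1.84, SE 0.37) fell. Epor lost its call with edgeR, DESeq2 and in 6 of the 10 fits without 1 embryo (limma adjusted p = 0.0548 to 0.0705; without WT 2 or 5 or mutant 1, 2, 3 or 5). Hbb-y measured 0.836 to 3.03 scaled counts in WT, about 3 reads or fewer, so its fitted fold change depends on the pseudocount. In mutants it measured 23 to 308.6, so its groups did not overlap, although Gata1 was not higher in any mutant than in the highest WT embryo. The globins Hba-x and Hbb-bh1 measured 1186 and 4627 in the library labelled mutant 4, against at most 56 and 918.5 in any other embryo.

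Endothelial genes, which share early progenitors with blood, rose in part. Of 11 tested, 3 rose and 0 fell, with and without the library labelled mutant 4, beside 11.4% higher over all genes: the receptor Tie1 (2.56, SE 0.28), the ETS factor Fli1 (0.79, SE 0.13) and Cd34 (1.06, SE 0.31). Cd34 lost its call in 5 of the 10 fits without 1 embryo (limma adjusted p = 0.0566 to 0.0696). Those were the fits without WT 1, 2 or 5 or mutant 2 or 3. Over all 19 alternatives Cd34 passed in 13. The median was 0.79, and 0.58 without the library labelled mutant 4. The vessel cadherin Cdh5 and the adhesion gene Pecam1 were at 1824 and 1657 scaled counts in the library labelled mutant 4, against at most 169.7 and 372.8 elsewhere.

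Whether members of a pair differed in their response was tested on the difference of their log2 values within each embryo. The level of Gata2 relative to Gata3 went from 2.64 ± 0.27 in WT to 1.96 ± 0.30 in mutants (SD, n = 5), a change of −0.68 (exact two-sided permutation p = 0.0159, adjusted p = 0.0476 over 3 pairs). All but 1 of the mutants lay below every WT embryo. This change was lost in 6 of the 10 comparisons without 1 embryo, among them without the library labelled mutant 4 (−0.58, exact permutation, adjusted p = 0.0952). The others were those without WT 1, 2 or 4 or mutant 3 or 5 (−0.67 to −0.62, exact permutation, adjusted p = 0.0714 to 0.0952). In each of the 6 the exact permutation p was 0.0317, and the smallest that 4 against 5 embryos can give is 0.0159. The same p kept the call without WT 3 and without mutant 2 (exact permutation, adjusted p = 0.0476), since the adjustment also depends on the other pairs. With such coarse steps and this adjustment, the lost calls do not show that the change was absent. Gata1 relative to Gata2 changed by −0.44 (exact permutation p = 0.0635, adjusted p = 0.0952), and Gata4 relative to Gata6 by −0.32 (exact permutation p = 0.0952, adjusted p = 0.0952). The change passed without WT 3 for Gata1 relative to Gata2 (−0.52) and without mutant 2 for Gata4 relative to Gata6 (−0.45, each exact permutation, adjusted p = 0.0476). A p above the threshold does not show that Gata4 and Gata6 responded alike. On the log2 scale Gata4 exceeded Gata6 by 1.80 to 2.19 in WT and by 1.41 to 2.22 in mutants.

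Levels were compared between genes after division by merged exon length, as scaled counts per kb. In WT the order was Gata4 (1089 ± 167.5), Gata2 (486.1 ± 86.9), Gata1 (237.6 ± 55.38), Gata6 (158.2 ± 16.8), Gata3 (105 ± 13.84) and Gata5 (57.67 ± 17.43; SD, n = 5). The ranges of Gata1 (146.7 to 283.2) and Gata6 (142.9 to 185.3) overlapped, and those of the other neighbours did not. In mutants the order was Gata4 (1334 ± 296.2), Gata2 (542.4 ± 325.4), Gata6 (239.8 ± 32.75), Gata3 (208 ± 174.7), Gata1 (175.4 ± 32.69) and Gata5 (24.14 ± 37.78), with overlap between Gata4 and Gata2, between Gata2 and Gata3 and among Gata6, Gata3 and Gata1. Over mutants 1, 2, 3 and 5 the order turned to Gata1 (165.6 ± 28.13) above Gata3 (130.6 ± 26.51; SD, n = 4), whose ranges overlapped. The other places were as before, with Gata4 at 1440 ± 208, Gata2 at 398.6 ± 57.83, Gata6 at 248.3 ± 30.87 and Gata5 at 7.27 ± 2.67, and no overlap between other neighbours. Gata1 per kb was above Gata6 in all 5 WT embryos and in the library labelled mutant 4, and below it in the other 4 mutants.

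**Figure D4:**
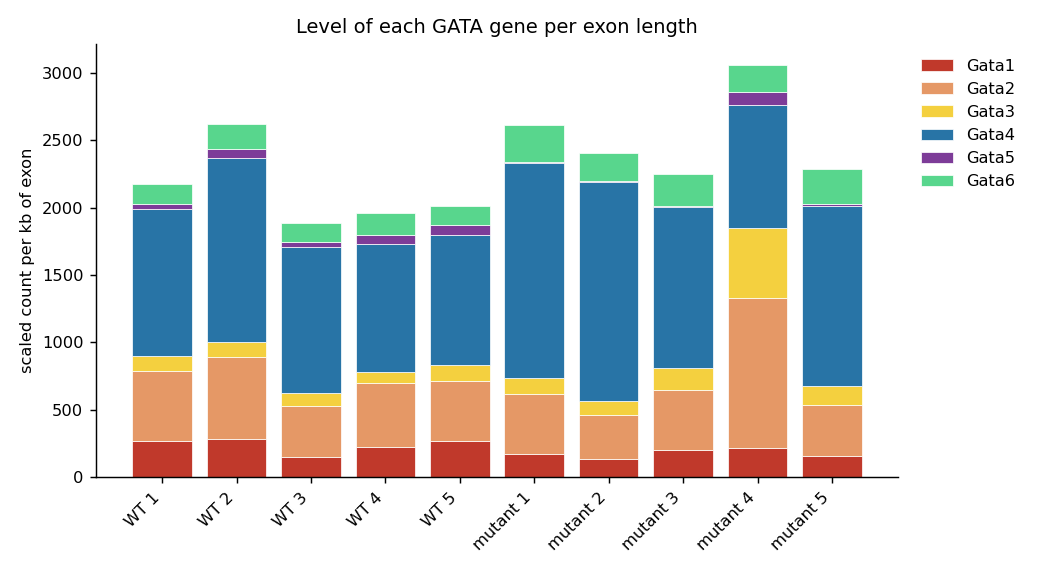
Scaled counts per kb of exon (y axis) of the 6 GATA genes, stacked for each embryo (x axis). Gata4 is the tallest segment in 9 embryos, and in the library labelled mutant 4 Gata2 is, at 1118 against 913.8.

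Gata4 made up 47.7% to 57.4% of the family per kb in WT and 53% to 67.8% in mutants 1, 2, 3 and 5, but 29.9% in the library labelled mutant 4. There Gata2 was 36.5% and Gata3 16.9%, against at most 24.1% and 5.97% in WT. Gata5 was 1.84% to 3.68% in WT and 0.17% to 0.456% in mutants 1, 2, 3 and 5.

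Partners of GATA factors moved in both directions. Of 13 tested, 2 rose and 3 fell (5 of 13, beside 25.1% of all genes, and the same counts without the library labelled mutant 4), with a median log2 fold change of −0.26. Lmo2, the bridging protein that joins GATA1 and GATA2 to TAL1 in blood, rose by 1.90 (SE 0.19), from 796.8 ± 117.8 to 3064 ± 858.5 scaled counts (SD, n = 5, limma adjusted p = 6.76e-05). WT embryos had 633 to 956 and mutants 1876 to 3717, the lowest being the library labelled mutant 4. The blood factor Runx1 rose by 0.90 (SE 0.21). The E protein Tcf3 (−0.67, SE 0.12), the LIM-only gene Lmo4 (−0.47, SE 0.12) and the acetyltransferase Ep300 (−0.40, SE 0.10) fell. Tal1 (−0.46, adjusted p = 0.122), the bridge Ldb1 (−0.26, adjusted p = 0.138) and the GATA-binding co-factor Zfpm1 (−0.16, adjusted p = 0.496) did not pass. Zfpm2 and Lyl1 were below the filter.

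**Figure D5:**
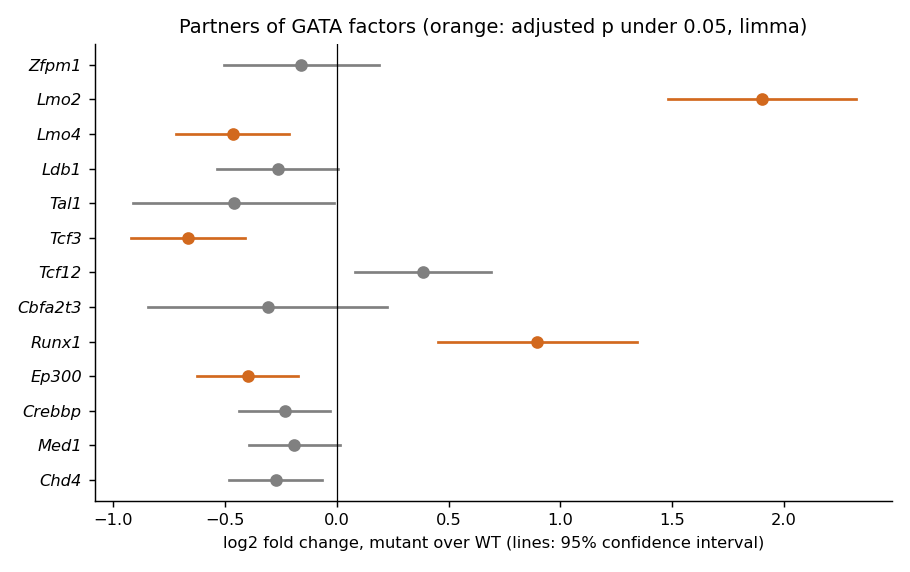
Log2 fold change of mutant over WT with 95% confidence intervals (x axis) for 13 tested partners of GATA factors (y axis), orange where the limma adjusted p is under 0.05. Lmo2 lies farthest from 0, at 1.90.

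Other genes that encode a GATA-type zinc finger were followed for comparison. Of 9 tested, Trps1, a repressor that reads GATA sites, rose (0.96, SE 0.20), and Mta1 (−0.57, SE 0.15) and Mta2 (−0.35, SE 0.08), subunits of the NuRD complex, fell. The 3 of 9 that passed, with and without the library labelled mutant 4, stand beside 25.1% of all genes. The median of the 9 was 0.12.

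The genes with the most similar pattern were found by the root mean square difference over the 10 embryos of log2 values centred on each gene's mean. For Gata5 they were the co-activator Eya2 (0.35), the SOX factor Sox9 (0.51) and the homeobox gene Hesx1 (0.51), against a spread of Gata5 itself of 1.58. Eya2 measured 71.1 to 161.5 scaled counts in WT, 12.4 to 24.7 in mutants 1, 2, 3 and 5 and 119.3 in the library labelled mutant 4. For Gata3 they were the cell cycle inhibitor Cdkn1c (0.19), the transglutaminase Tgm2 (0.20) and the kinase Limk1 (0.22), each highest in that library. For Gata2 they were Ptp4a3 (0.10), Gatsl3 (0.12) and Tmem54 (0.15). For Gata6 they were Snx30 (0.09), Mfge8 (0.10) and Sik1 (0.12), for Gata4 Dhrs11 (0.12), Myo5b (0.12) and Rab4a (0.12), and for Gata1 Timp2 (0.13), Shb (0.15) and Epb41l1 (0.15). For Gata1, Gata4 and Gata6, whose own spread was 0.29 to 0.37, 1087 to 2592 genes lay within 0.3, so many genes were as close there as those named.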

How the data were processed

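Per the submitters' processing notes, the tools were cutadapt 1.6, STAR 2.5.0a, HTSeq 0.5.3 and DESeq, and the build was mm10. Libraries came from 1.9 to 2 ng of RNA by SMART-Seq v4, per the labels' protocols, a chemistry that does not mark strand. The deposited values are a signal: the authors' read counts divided by 1 size factor per embryo. Multiplied by each embryo's size factor, the values of 20006 of 20006 genes were whole within 0.01 reads, and these reads were used in count tests. For the strand setting, the annotation and any filter, the sources used here give nothing. No molecular identifiers are given, and 3 reads correspond to 2.51 to 3.41 scaled counts, for counting error only.

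Genes with a mean of at least 10 were compared with limma 3.58.1 (R 4.3.3) on log2(scaled count + 1) with an intensity trend, with Benjamini-Hochberg adjustment across the 15429 genes. The pipeline was tested on simulated data. Alternatives were pseudocounts of 0.5 and 5, TMM scaling, other filters, edgeR 4.0.16, DESeq2 1.42.0, each embryo left out and a replicate block. Single values had exact permutation tests (scipy 1.17.1). Gene IDs were matched to GENCODE M21 without versions. Members, gene lists and rules were chosen with earlier results of these data known. Named list genes are up to 4 per list with the smallest adjusted p and any that moved against the rest, and for each member the 3 genes most like it among those with a mean of at least 50. Other list genes, and the comparison without mutants 3 and 4, were chosen after their values were seen.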

Additional observations from a re-analysis of the deposited data

Results flagged for a closer look

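Of 90 groups of 5 embryos examined, 14 values lay apart from the other 4 embryos of their group, with a gap to the nearest embryo above 0.71 of the group's range. For independent normal values the rate would be about 1 in 20 groups. The groups here share the same embryos, and most of their genes were named for a small adjusted p, so that rate does not apply to them. In all, 10 of the 14 were in the library labelled mutant 4, 2 in mutant 3, 1 in WT 2 and 1 in WT 3. Among the GATA genes these were Gata2 (6033 scaled counts), Gata3 (2060) and Gata5 (300.2) in the library labelled mutant 4, each above the other mutants. Gata1 relative to Gata2 was −3.53 on the log2 scale there, below the other mutants.

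The same library was apart from the other mutants for the erythropoietin receptor Epor (353.7 scaled counts), the myosin gene Myl7 (106.1), the plasminogen activator Plat (511.4), the homeobox gene Dlx5 (120.3) and the epithelial factor Grhl2 (545.8), all higher, and for the endocytic receptor Cubn (10444), which was lower. Mutant 3 was above the other mutants for the decidual prolactin gene Prl3c1 (221.8) and the neutrophil gene S100a8 (137.8). WT 3 was above the other WT embryos for Prl3c1 (22.7), and WT 2 for Hnf4a (2445).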

How the results depend on the processing

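Gata6 passed in each of the 19 alternatives, with log2 fold changes of 0.54 to 0.66. The number of genes past the threshold was 3877, and 2505 to 4535 without 1 embryo, lowest without WT 5. Gata5 was −1.27 with edgeR, −1.25 with DESeq2 and −2.95 to −1.86 without 1 embryo. Gata3 passed with DESeq2 (0.99). Gata2 changed sign with TMM scaling (−0.0128) and with mutants 1, 2 and 5 alone (−0.34), and was −0.28 to 0.17 without 1 embryo. Gata4 was 0.49 with mutants 1, 2 and 5 and 0.20 to 0.40 without 1 embryo, and Gata1 was −0.58 to −0.33. Gata2 relative to Gata3 was −0.53 with mutants 1, 2 and 5 and −0.78 to −0.58 without 1 embryo. Without 1 embryo, Gata1 relative to Gata2 was −0.53 to −0.22 and Gata4 relative to Gata6 was −0.45 to −0.24. The list genes past the threshold numbered 36, and 28 to 53 without 1 embryo. Axin2 changed sign with edgeR (0.0203), DESeq2 (0.0242) and mutants 1, 2 and 5 (0.15), and was −0.12 to 0.0732 without 1 embryo. The causes were not tested.

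Replicate numbers did not pair the embryos (correlations of deviations for the same number −0.0787 to 0.0787). With the replicate number as a block 3253 genes passed. Gata2 relative to Gata3 was −0.68 under the block (exact sign-flip permutation, adjusted p = 0.188), where 5 pairs cannot reach the threshold. With 14 to 36 reads of Gata5 in mutants 1, 2, 3 and 5, counting error limits its level there.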
